A study of Danio rerio with 4 samples.

Results

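The genes described here are those known from the germ line and the egg coat of fish: the RNA helicase gene ddx4 (vasa), dazl, the PIWI genes piwil1 and piwil2, and every gene on the array whose symbol starts with nanos, tdrd, sycp, zp2 or zp3. They were taken by symbol, as probe sets that the platform annotation gives exactly 1 gene, and the choice of symbols was made with earlier results of these data known. This gave 25 of the 8793 gene symbols named in this way, measured by 30 of the 15502 probe sets tested, with 2 probe sets for 5 of the symbols. The arrays were 1-colour Affymetrix ones, hybridised with RNA of whole zebrafish larvae aged 120 hours post fertilization, 2 samples being uhrf1 mutant (replicates 1 and 2) and 2 wildtype (replicates 1 and 3). The growth protocol names offspring of heterozygotes for uhrf1hi272, an allele from a retroviral insertion, as the usual source of larvae, without saying that these arrays used them, and gives the wildtype larvae no further genotype. Pooling of larvae and the use of separate clutches are not stated, and each p-value therefore reflects the spread among these samples alone, which may be technical.

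In vertebrates many germ cell genes are kept off in body cells, and in the mouse several of them, Dazl, Ddx4, Sycp3 and piRNA pathway genes included, carry promoter DNA methylation there and come on when it is lost. UHRF1 recognises hemimethylated sites left by replication and recruits DNMT1, the enzyme that restores methylation there. A zebrafish larva of this age has few germ cells and no differentiated ovary or testis, so germ line transcripts make up a very small part of its RNA. DNA methylation was not measured on these arrays.

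None of the 30 germ cell probe sets passed the test between mutant and wildtype larvae, and 27 of the 30 read under the array median on all 4 arrays. By limma, with Benjamini-Hochberg adjustment over all 15502 probe sets, 0 of 30 were called at an adjusted p under 0.05, against 1.50% of all probe sets (0.845% higher and 0.658% lower in mutants). Before adjustment 2 of 30 had a p under 0.05, zp3a.2 and zp3d.2, against 11.9% of all probe sets. An unmoderated model called 0 of all 15502 probe sets, so its 0 of 30 says nothing about the members. Scaled on the control transcripts added at hybridisation, which moved the whole array upward in mutants, 9 of 30 were called higher, against 33.1% of all probe sets. The egg coat gene zp3a.2 had both mutant arrays above both wildtype arrays, with a ratio of deposited means of 2.18, and came closest to a call, with a limma adjusted p of 0.063. The log2 changes of the other 29 probe sets lay between -0.38 and 0.09, with limma adjusted p-values of 0.42 to 0.98.

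Each change is given as mutant minus wildtype of log2(intensity + 1), ± its moderated standard error, and each ratio as the mutant mean intensity over the wildtype mean. The intensities had been background-corrected, quantile-normalized and summarised by RMA, they carry no detection calls, and RMA compresses changes of dim probe sets. The 4 arrays had median intensities between 29.4 and 31.5. One uhrf1 probe set read 41.1 and 26.3 in mutants against 47.4 and 41.5 in wildtype larvae, with a limma adjusted p of 0.56, and the other between 8.97 and 9.91, so uhrf1 itself does not check the labels. All 17 measured markers of larval muscle, liver, retina, lens, skin, nervous system, cartilage and pancreas read above the array median on every array. Among these the exocrine pancreas gene prss1 fell by 3.02 and cpa5 fell by 2.79 in mutants on the log2 scale, and limma gave adjusted p-values of 0.00088 and 0.0021. Of the 17 markers 7 had an unadjusted p under 0.05, the other 5 being lower in mutants without passing the adjusted threshold, in liver (tfa -1.42 and fabp10a -0.91), retina (gnat2 -0.76 and opn1sw1 -0.47) and skin (krt5 -0.71, all log2). The markers did not all fall. The muscle genes mylpfa, ckma and actc1b were higher on both mutant arrays, by 0.27, 0.14 and 0.07 (log2), and were not called. The cartilage gene col2a1a was at 0.49 (log2), with the groups overlapping. The median log2 change of the 17 markers was -0.30, with a summed intensity between 45886 and 46403 in mutants and between 57468 and 59225 in wildtype larvae. The part of these tissues in the germ cell values was not tested. The 18 hybridisation controls, transcripts of bacteria and phage added to every array, were on average 0.49 lower (log2) on the mutant arrays, and scaling on them moved the median of all probe sets to 0.45, against -0.04 as deposited. Changes below are thus read against the bulk of each array.

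Brightness was read in 2 ways, because a dim probe set may report background rather than transcript. The 25th percentile of the probe sets was 11.97 and 12.7 intensity units on the mutant arrays and 13.0 and 12.7 on the wildtype arrays. Of the 30 germ cell probe sets, 16 lay under it on all 4 arrays, here called near the floor, 1 on some arrays (zp2l2) and 13 on none. This is a description of where they sit, and 21.1% of all probe sets meet the same limit. The array also carries 20 control probe sets for artificial tags and a bacterial tryptophan gene, which match no fish transcript. Their median was 8.10 and 9.02 on the mutant arrays and 10.1 and 9.13 on the wildtype arrays. The brightest of them read 18.2 and 27.7 on the mutant arrays and 23.5 and 24.3 on the wildtype arrays. On all 4 arrays 25 of the 30 germ cell probe sets read no higher than that, against 36.2% of all probe sets, and only nanos1 exceeded it on every array. Of the other 4, tdrd3 exceeded it on 3 arrays by its first probe set, zp2.6 on both wildtype arrays, zp3a.2 on both mutant arrays and zp3f.1 on wildtype replicate 1. The plot of members by array shows this layout. The limit by tag and tryptophan controls was chosen after seeing the data. The brightest of a wider set of 44 bacterial and tag controls read 57.8 and 79.5 on the mutant arrays. On the wildtype arrays it read 68.1 and 98.6. By that limit 29 of the 30 read no higher on all 4 arrays, and nanos1 exceeded it on mutant replicate 1 alone.

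**Figure D1:**
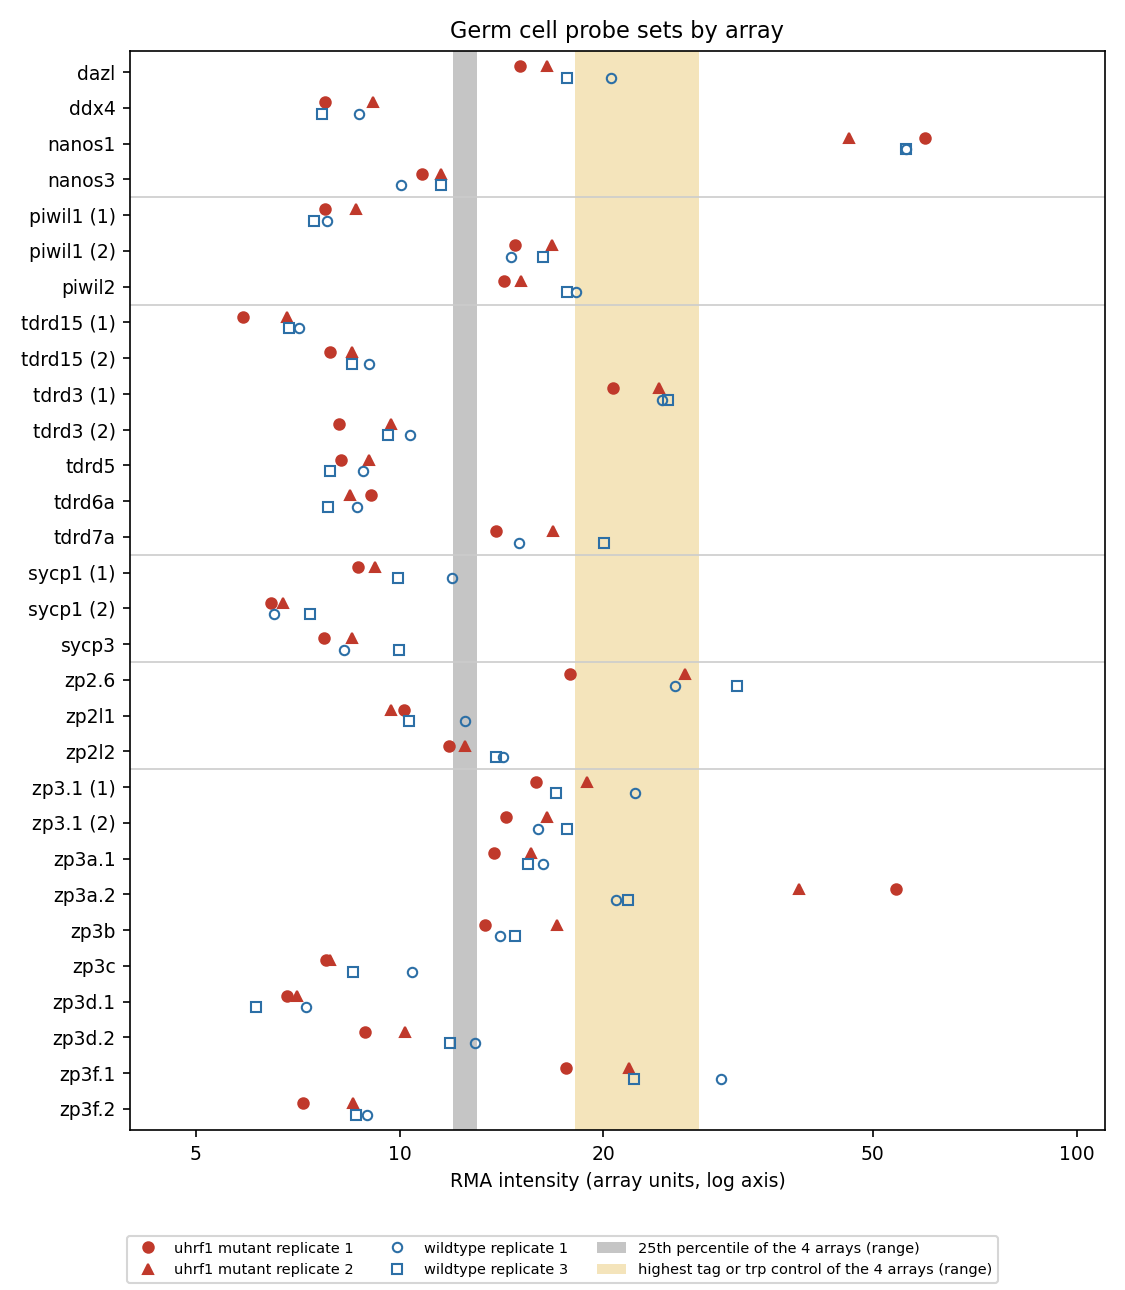
RMA intensity (array units, log axis) of each of the 30 germ cell probe sets on the 2 uhrf1 mutant arrays (filled red) and the 2 wildtype arrays (open blue), grouped by role. Where a gene has 2 probe sets they are numbered 1 and 2 in the order of their identifiers, the grey band is the range of the 25th percentiles and the yellow band the range of the brightest tag or tryptophan control over the arrays. In zp3a.2 both mutant points lie to the right of the yellow band, and in nanos1 all 4 points do.

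The germ granule and RNA-binding genes came first in the order of roles. ddx4, the DEAD-box helicase that marks zebrafish germ cells, read 7.76 and 9.13 in mutants, against 8.72 and 7.67 in wildtype larvae. The groups overlapped, all 4 values lay under the 25th percentile, and the log2 change was 0.04 ± 0.15 (SE; 95% interval -0.33 to 0.40). dazl, an RNA-binding protein that promotes translation in germ cells, read 15.0 and 16.5 in mutants, against 20.5 and 17.7 in wildtype larvae. Both mutant arrays lay below both wildtype arrays, by -0.26 ± 0.15 (SE, log2) with a limma adjusted p of 0.58, and all 4 values were under the brightest tag control of their array.

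The nanos genes encode zinc-finger repressors of translation, and zebrafish nanos3 is required to keep primordial germ cells. nanos3 read 10.8 and 11.5 in mutants, against 10.04 and 11.5 in wildtype larvae, near the floor on every array and overlapping between groups. nanos1 read 59.7 and 46.1 in mutants, against 55.9 and 55.9 in wildtype larvae. It lay above every tag control, between the 61.2 and 66.8 percentiles of the 4 arrays. The wildtype values lay between the 2 mutant values, and the log2 change was -0.09 ± 0.17 (SE; 95% interval -0.50 to 0.31). In bulk larvae fewer cells of a type and less RNA per cell cannot be told apart, and this holds for each gene here.

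PIWI proteins are Argonautes that carry piRNAs, small RNAs that silence transposons in the germ line. The second probe set of piwil1 (ziwi) read 14.8 and 16.8 in mutants, against 14.6 and 16.3 in wildtype larvae, and its log2 change was 0.03 ± 0.14 (SE). The first probe set read 7.76 and 8.63 in mutants, against 7.82 and 7.48 in wildtype larvae, near the floor, with a change of 0.09 ± 0.13 (SE, log2). Neither separated the groups. piwil2 (zili) read 14.3 and 15.1 in mutants, against 18.2 and 17.7 in wildtype larvae. Both mutant arrays were lower, by -0.27 ± 0.13 (SE, log2), with a limma adjusted p of 0.49 and a 95% interval from -0.59 to 0.04.

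Tudor domain proteins bind methylated arginines, and several of them assemble germ granules or load PIWI proteins. Of their 7 probe sets 5 were near the floor, those of tdrd5, tdrd6a and tdrd15 and the second of tdrd3. tdrd6a, which in zebrafish organises germ plasm, read 9.09 and 8.46 in mutants, against 8.65 and 7.84 in wildtype larvae. tdrd5, needed for piRNA production in the mouse, read 8.20 and 9.02 in mutants, against 8.82 and 7.89 in wildtype larvae. The groups overlapped in both genes, with log2 changes of 0.08 ± 0.14 and 0.04 ± 0.14 (SE). The 2 probe sets of tdrd15 read between 5.88 and 8.51 in mutants and between 6.87 and 9.03 in wildtype larvae. Each was lower on both mutant arrays, in 1 of them by a margin smaller than the third digit, and the changes were -0.12 ± 0.14 and -0.09 ± 0.13 (SE, log2).

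The other Tudor genes, tdrd7a and tdrd3, are known also for work outside the germ line. tdrd7a, whose counterpart in mouse and human is needed in the lens as well as in spermatids, read 13.9 and 16.9 in mutants, against 15.0 and 20.02 in wildtype larvae. tdrd3, a partner of topoisomerase 3-beta that acts in many tissues, read 20.6 and 24.2 in mutants, against 24.4 and 24.9 in wildtype larvae by its first probe set. Its second probe set, near the floor, read 8.13 and 9.71 in mutants, against 10.4 and 9.61 in wildtype larvae. These tdrd3 probe sets gave -0.14 ± 0.14 and -0.15 ± 0.15 and tdrd7a -0.17 ± 0.19 (SE, log2), and over all 7 Tudor probe sets the lowest limma adjusted p was 0.78.

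The synaptonemal complex joins homologous chromosomes in meiosis, with sycp1 as its transverse filament and sycp3 in its lateral elements. All 3 probe sets were near the floor. sycp3 read 7.73 and 8.50 in mutants, against 8.27 and 9.98 in wildtype larvae. The first sycp1 probe set read 8.69 and 9.19 in mutants, against 11.9 and 9.96 in wildtype larvae, and the second 6.46 and 6.72 in mutants, against 6.52 and 7.37 in wildtype larvae. Of these 3 only the first sycp1 probe set separated the groups, lower in mutants by -0.26 ± 0.15 (SE, log2), and the limma adjusted p was 0.58.

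The zp2 and zp3 families encode the glycoproteins of the egg coat, which zebrafish make in the ovary and which form the inner layer of the chorion. Zebrafish have many copies of each, and probes can bind more than 1 of them. Among the 3 zp2 probe sets, zp2.6 read 17.9 and 26.4 in mutants, against 25.5 and 31.5 in wildtype larvae. The groups overlapped, at -0.37 ± 0.22 (SE, log2). zp2l2 read 11.8 and 12.5 in mutants, against 14.2 and 13.9 in wildtype larvae. Near the floor on all 4 arrays, zp2l1 read 10.2 and 9.71 in mutants, against 12.5 and 10.3 in wildtype larvae. In both of these the mutant arrays were the lower ones, by -0.19 ± 0.13 and -0.18 ± 0.15 (SE, log2), and the lowest limma adjusted p among the zp2 probe sets was 0.60.

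In the zp3 family zp3a.2 was the member with both mutant arrays higher. It read 54.1 and 38.9 in mutants, against 20.9 and 21.8 in wildtype larvae. Both mutant arrays lay above both wildtype arrays, the mutant arrays differing by more from each other than the wildtype arrays did. The group means were 46.5 ± 10.7 in mutants and 21.3 ± 0.60 in wildtype larvae (SD, n = 2 each), and the log2 change was 1.07 ± 0.19 (SE; 95% interval 0.62 to 1.52). The limma adjusted p of 0.063 (unadjusted 0.0012) missed the threshold, and 0.968% of all probe sets had a change at least as high. Within its arrays zp3a.2 stood at the 64.4 and 56.5 percentiles in mutants and at 39.1 and 41.1 in wildtype larvae. Its wildtype values were below the brightest tag or tryptophan control of the same array, and its mutant values above it. All 4 values were below the brightest of the wider set of bacterial and tag controls, which read 57.8 and 79.5 on the mutant arrays. The ratio of 2.18 is thus one of deposited values and not an exact fold of the transcript.

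The call of zp3a.2 depended on the setting. It was past the threshold without the dimmest 25% of probe sets (limma adjusted p 0.037), with an intensity-dependent robust prior (0.022) and with arrays scaled on the hybridisation controls (0.022). It was not past it without mutant replicate 1 (0.14) or with a pseudocount of 16 (0.19), and over all 11 alternatives its log2 change lay between 0.73 and 1.56 and its adjusted p between 0.022 and 0.58.

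The gene next to zp3a.2 among protein-coding genes of the RefSeq table (assembly GRCz12tu) is its family member zp3a.1. zp3a.1 read 13.8 and 15.7 in mutants, against 16.3 and 15.5 in wildtype larvae, overlapping, with a log2 change of -0.11 ± 0.14 (SE) and a 95% interval from -0.44 to 0.23. The difference between the changes of zp3a.2 and zp3a.1 was not tested. zp3d.1 and zp3d.2 are also neighbours, as are zp3f.1 and zp3f.2. zp3d.2 read 8.90 and 10.2 in mutants, against 12.9 and 11.9 in wildtype larvae, lower on both mutant arrays by -0.35 ± 0.14 (SE, log2) with a limma adjusted p of 0.42. zp3d.1 read 6.81 and 7.06 in mutants, against 7.27 and 6.14 in wildtype larvae, and overlapped.

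zp3f.1 read 17.6 and 21.8 in mutants, against 29.8 and 22.2 in wildtype larvae, and zp3f.2 read 7.20 and 8.53 in mutants, against 8.94 and 8.63 in wildtype larvae. Mutant arrays were the lower ones in both, by -0.38 ± 0.19 and -0.15 ± 0.14 (SE, log2), neither past the threshold. zp3c read 7.80 and 7.89 in mutants, against 10.4 and 8.53 in wildtype larvae, and zp3b 13.4 and 17.1 in mutants, against 14.1 and 14.8 in wildtype larvae. Mutants were lower in zp3c, at -0.24 ± 0.15, and overlapped with wildtype larvae in zp3b, at 0.06 ± 0.16 (SE, log2). The 2 probe sets annotated to zp3.1, under different gene IDs, are the first, at 15.9 and 18.9 in mutants and 22.2 and 17.0 in wildtype larvae, and the second, at 14.4 and 16.5 in mutants and 16.015 and 17.7 in wildtype larvae. The groups overlapped in both. Near the floor were 4 of the 10 zp3 probe sets, those of zp3c, zp3d.1, zp3d.2 and zp3f.2.

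**Figure D2:**
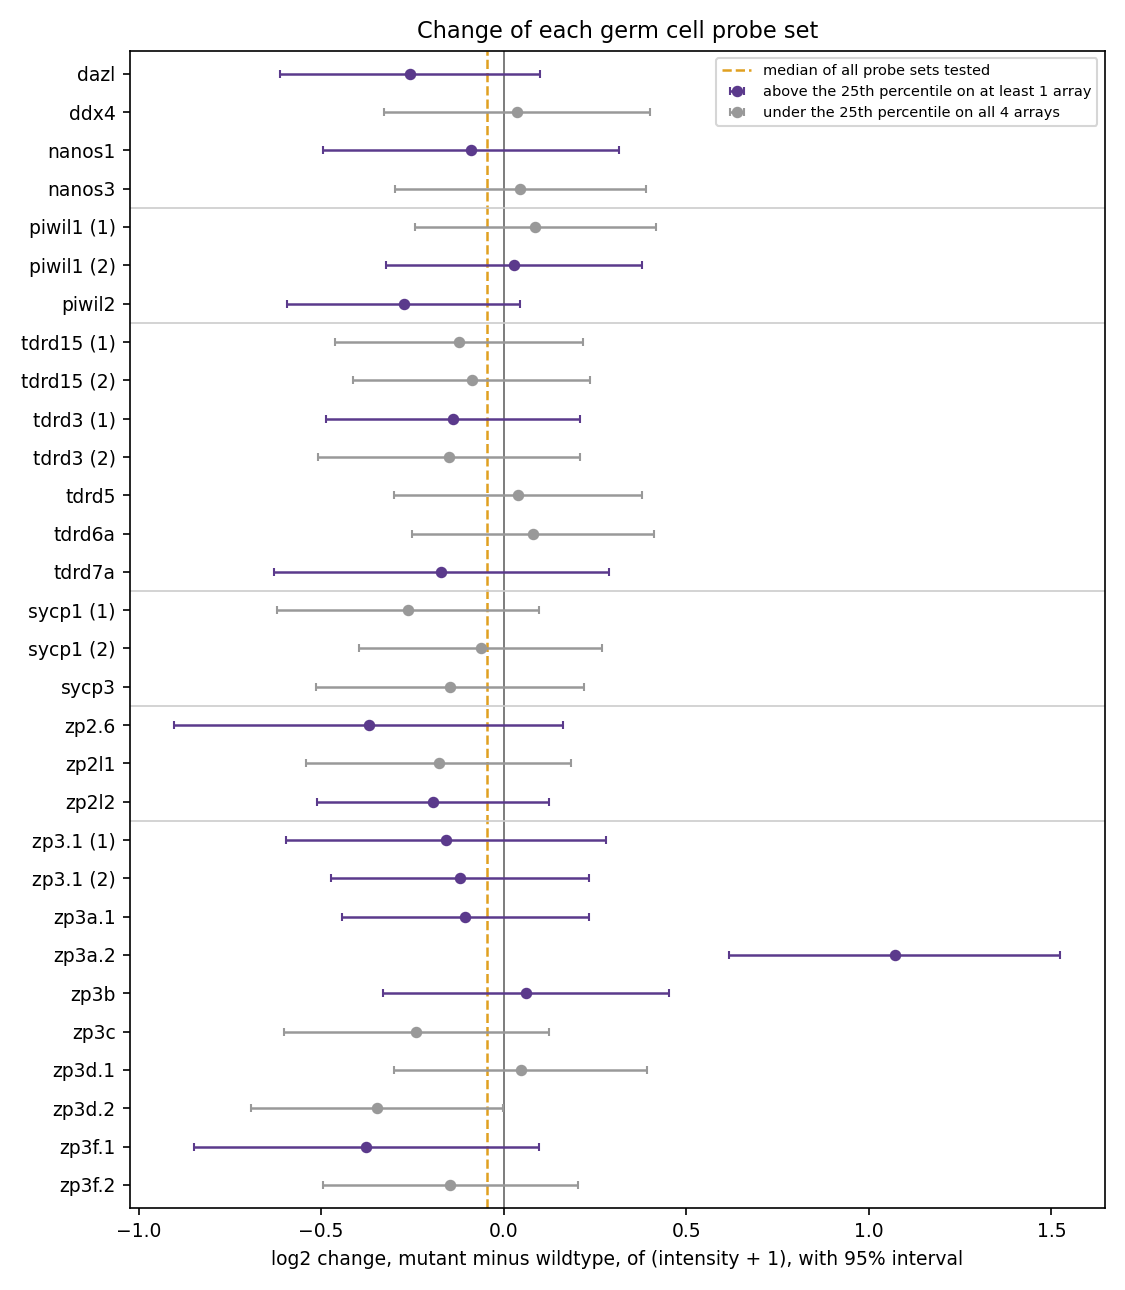
Log2 change, mutant minus wildtype, of (intensity + 1) for each of the 30 germ cell probe sets with its moderated 95% interval, in grey for the 16 near the floor and in purple for the others. The dashed line is the median of all 15502 probe sets, -0.04. The interval of zp3a.2, from 0.62 to 1.52, lies to the right of all others, and 28 of the other 29 intervals hold 0.

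Across the 30 probe sets 21 log2 changes were below 0 and 9 above it, and 60.1% of all probe sets were below 0. The median was -0.13, and -0.14 without zp3a.2, beside -0.04 for all probe sets. For the 16 near the floor the median was -0.11, beside -0.04 for all 3275 probe sets under the same limit. Both mutant arrays lay below both wildtype arrays in 12 of 30 probe sets (40.0%), against 26.3% of all probe sets. Among the 3275 near the floor, a limit that only 16 of the 30 members met, the share was 24.6%. Both mutant arrays lay above both wildtype arrays in 1 of 30 (3.33%), zp3a.2, against 14.9% of all probe sets. No single member of the lower set passed the test, and scaling on the hybridisation controls turned all 21 negative changes positive, with a member median of 0.36 beside 0.45 for all probe sets. The 9 members called higher on that scale were those of ddx4, nanos3, tdrd5, tdrd6a, zp3a.2, zp3b, zp3d.1 and both of piwil1, a share near the 33.1% of all probe sets called higher there.

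The intervals describe the deposited values, and for probe sets no brighter than the brightest tag control they set no limit on a change of the transcript. For the 4 gene IDs with 2 probe sets, piwil1, tdrd3, tdrd15 and sycp1, both gave the same sign of change, and the widest gap was in sycp1, at -0.26 and -0.06.

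**Figure D3:**
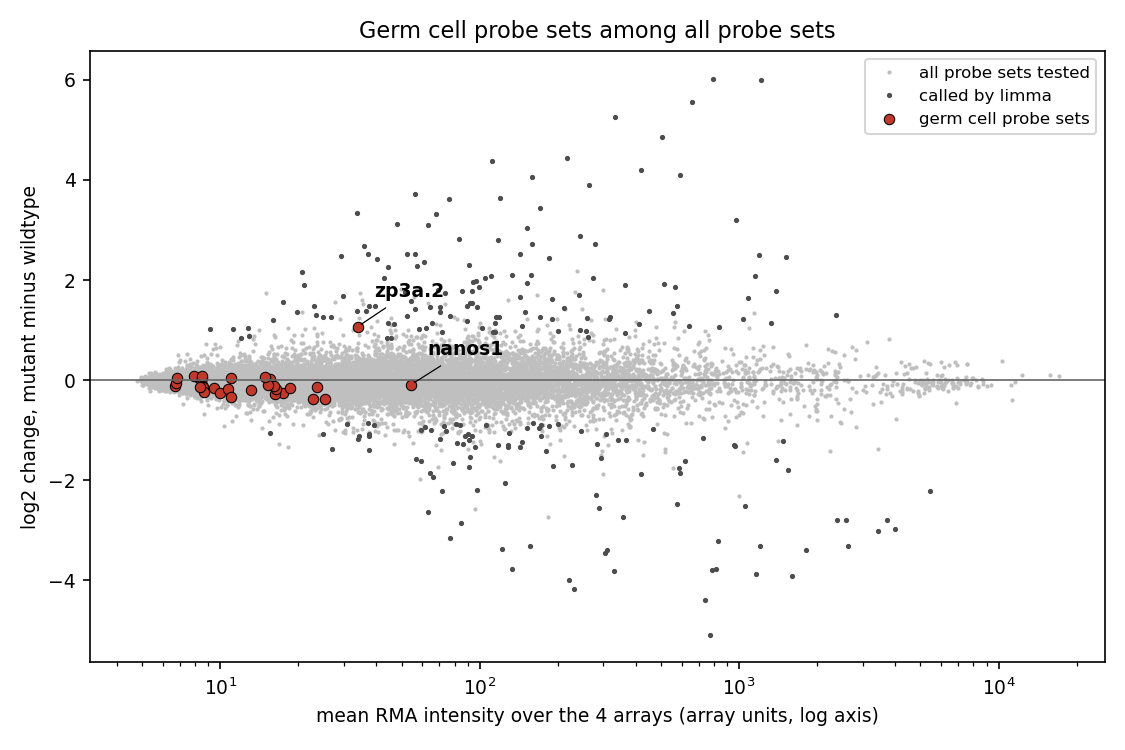
Log2 change, mutant minus wildtype, against the mean RMA intensity over the 4 arrays (log axis) for all 15502 probe sets (light grey), the 233 called by limma (dark) and the 30 germ cell probe sets (red). The germ cell probe sets lie mostly at the dim end of the cloud of all probe sets. The highest of them is zp3a.2, at 1.07, and 0.968% of all probe sets had a change at least as high.

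Another 7 probe sets are annotated to several genes, at least 1 of them of the zp2 or zp3 families, and were not counted among the members. They read between 11.8 and 70.1 intensity units, and their log2 changes ran from -0.40 to 0.01. By limma 0 of 7 were called and 0 had an unadjusted p under 0.05, against 1.50% and 11.9% of all probe sets. Both mutant arrays were lower in 3 of the 7 and higher in none, against 26.3% and 14.9% of all probe sets. The 3 lower ones were also those above every tag control on all arrays. One of them, annotated to zp2 genes only, read 53.3 and 60.6 in mutants, against 64.7 and 70.1 in wildtype larvae. Another of zp2 genes only read 39.4 and 43.2 in mutants, against 51.5 and 43.4 in wildtype larvae. The last, of zp3 and other genes, read 22.6 and 28.7 in mutants, against 31.8 and 36.4 in wildtype larvae.

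Other genes of the same biology were read from lists of germ plasm, piRNA, meiosis, oocyte and sperm genes, of which 51 of 106 were measured beside the members. By limma 0 of 51 rose and 0 fell, against 0.845% and 0.658% of all probe sets. Before adjustment 3 of 51 had a limma p under 0.05, against 11.9% of all probe sets. The median change of the 51 was -0.07 (log2). Scaled on the hybridisation controls, 15 of the 51 were called, against 33.7% of all probe sets. Of the 51, 16 were near the floor and 12 were above the array median on all arrays. The germ plasm list (9 measured, median -0.04) holds dnd1, which protects germ cell mRNAs from microRNAs. By the brighter of its 2 probe sets dnd1 read 127 and 167 in mutants, against 164 and 161 in wildtype larvae. The tissue this signal came from was not tested. The linker histone gene h1m read 18.8 and 22.96 in mutants, against 29.8 and 24.3 in wildtype larvae, and the oocyte organiser gene buc was near the floor. In the same list celf1 and nanog had log2 changes of 0.24 and -0.17.

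The piRNA pathway list had a median of -0.02 over 7 genes and the meiosis list one of -0.12 over 9. wdr77 and prmt5, partners in an arginine methyltransferase complex used in many tissues, had log2 changes of -0.29 ± 0.13 and 0.05 ± 0.16 (SE), and ddx6, an RNA helicase of cytoplasmic granules, one of -0.19 ± 0.15. Among meiosis genes ccnb3, syce2 and psmc3ip had the smallest p, with log2 changes of -0.19, -0.22 and -0.18 and limma adjusted p-values from 0.67 to 0.71. hormad1, a chromosome axis protein, and rad21l1, a meiotic cohesin, were near the floor on all arrays.

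The oocyte list had a median of -0.12 over 15 genes. lhx8a, a transcription factor of early oocytes and of forebrain neurons, read 37.0 and 40.7 in mutants, against 47.4 and 49.6 in wildtype larvae, and zar1 read 9.55 and 10.5 in mutants, against 14.6 and 11.0 in wildtype larvae. The claudin gene cldng, by the brightest of its 4 probe sets, read 1538 and 1139 in mutants, against 1043 and 961 in wildtype larvae. Its change was 0.40 ± 0.18 (SE, log2), and limma gave it an adjusted p of 0.46. The tissue this signal came from was not tested. In the sperm list, with a median of -0.04 over 11 genes, the tubulin gene tuba8l2 read 320 and 328 in mutants, against 513 and 463 in wildtype larvae, at -0.59 ± 0.14 (SE, log2) and an adjusted p of 0.14 by limma. cfap20, a protein of motile cilia, and odf3l2a had changes of -0.36 ± 0.13 and -0.42 ± 0.16 (SE, log2). These 3 were the ones at an unadjusted p under 0.05, and tubulins and cilia proteins are used outside the testis.

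Markers of the somatic gonad, the supporting cells of ovary and testis, had 0 of 14 called by limma, against 1.50% of all probe sets. Before adjustment 0 of these markers had a limma p under 0.05, against 11.9% of all probe sets, and their median was -0.06. Their summed intensity was 256 and 321 on the mutant arrays and between 271 and 279 on the wildtype arrays, and 10 of the 14 read no higher than the brightest tag control on all arrays. amh and dmrt1 were near the floor. cyp19a1a, the aromatase of the ovary, read 12.1 and 12.8 in mutants, against 15.6 and 14.03 in wildtype larvae, and gsdf read 17.3 and 19.7 in mutants, against 21.4 and 22.3 in wildtype larvae. star, which brings cholesterol into mitochondria in gonad and interrenal cells, read 64.1 and 111 in mutants, against 59.8 and 59.0 in wildtype larvae. Both mutant arrays were higher, by 0.50 ± 0.26 (SE, log2), and the limma adjusted p was 0.54.

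**Figure D4:**
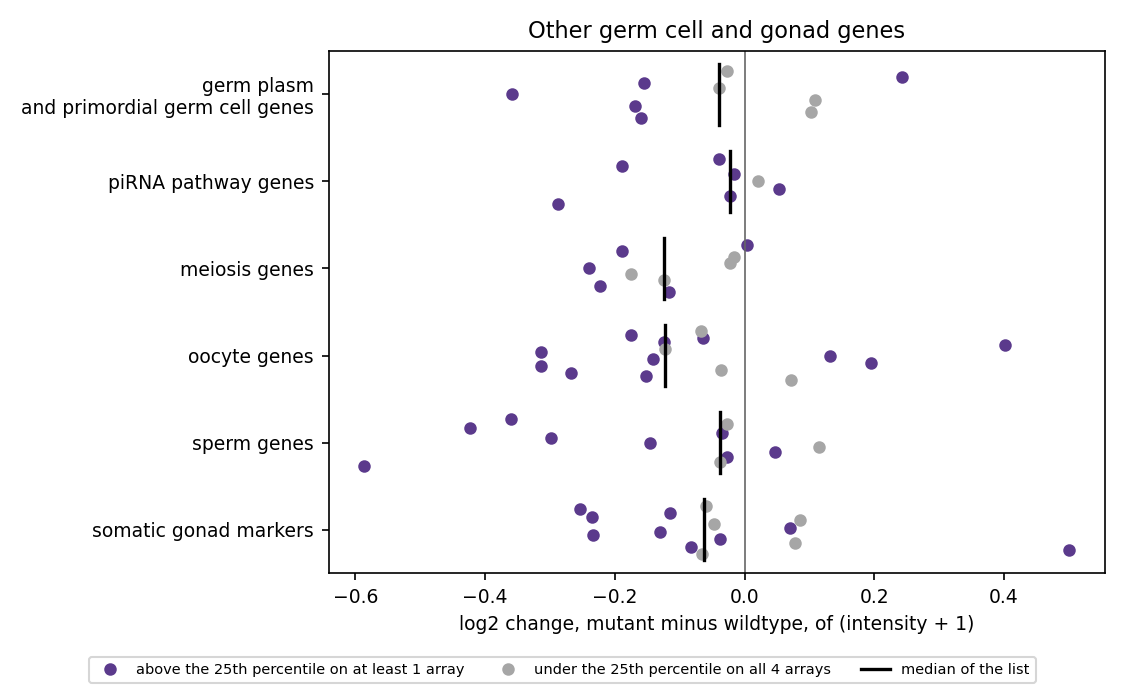
Log2 change, mutant minus wildtype, of (intensity + 1) for each measured gene of 5 further germ cell lists and of the somatic gonad list, 1 point a gene, with a bar at each list's median. Grey points are genes under the 25th percentile on all 4 arrays, list medians lie between -0.12 and -0.02, and no gene passed the test.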

How the data were processed

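Deposited values were linear intensities per probe set for 4 arrays, made by the authors with RMA, per the submitters' processing notes. The version of RMA is not given in the sources used. This table held 15617 probe sets, and 115 array controls were left out of all tests. Names came from a table of platform annotation, with 10795 of the tested probe sets given 1 gene, 135 several and 4572 none. Of the 30 members, 29 had their gene ID in the RefSeq table, and no symbol changed. Members and gene lists were chosen with earlier results of these data known.

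limma 3.58.1 under R 4.3.3 fitted log2(intensity + 1) for all 15502 probe sets at once (lmFit, eBayes), the group being the only term, 2 residual and 4.04 prior degrees of freedom, two-sided p and Benjamini-Hochberg adjustment. In other lists each gene was represented by its probe set of highest mean. On simulated data for this comparison with 15502 probe sets, 39 of 80 true log2 changes of size 1 were called, with 63 of 66 of size 2, 54 of 54 of size 4 and 7 of 15302 probe sets without a change. These changes were added in full at every brightness, so the shares do not cover the compression of dim probe sets by RMA.

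The rule for named genes took every member, with values for each above the floor, and the called genes and 3 smallest p-values of each further list. Other genes of these lists, and values of members near the floor, were added after their values were seen. Alternatives were other scalings, a pseudocount of 16, a filter on dim probe sets, other priors, thresholds and floors, and leaving out each array. Precision is limited by the number of arrays. The sequence of no probe or gene was used here.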

Additional observations from a re-analysis of the deposited data

How the results depend on the processing

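With 2 arrays a group, and most members under the brightest tag control, small differences could not be resolved. The count of 0 members called was 0 with quantile normalization, median centring, a pseudocount of 16, the unmoderated model and updated symbols. It was 9 scaled on the hybridisation controls and 1, zp3a.2, with the dimmest 25% left out (14 members tested), with the robust prior and at an adjusted p under 0.10. Leaving out an array, where the lone array of a group is assumed to vary like the other group, gave 0 to 1. The member median was 0.36 scaled on the controls, -0.060 with a pseudocount of 16 and -0.21 to -0.038 with an array left out. Of all probe sets 233 were called, 5223 scaled on the controls, 80 with a pseudocount of 16, 394 with the robust prior, 0 in the unmoderated model (1298 at an unadjusted p under 0.05) and 154 to 310 with an array left out. Calls were 56.2% higher ones as deposited, 60.1% after quantile normalization, 64.5% after median centring and 98.2% scaled on the controls, where 15 other germ cell genes were called, against 0 in each other alternative. Near the floor were 3 members by the 10th percentile, 27 by the median, 29 by the brightest bacterial or tag control and 25 by the brightest tag or tryptophan control, the last chosen after seeing the data.

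Scaled on the controls, the changes that turned positive were, on the log2 scale, 0.23 for dazl, 0.40 for nanos1, 0.22 for piwil2, 0.37 and 0.40 for tdrd15, 0.35 and 0.34 for tdrd3, 0.32 for tdrd7a, 0.23 and 0.43 for sycp1, 0.34 for sycp3, 0.12 for zp2.6, 0.31 for zp2l1, 0.30 for zp2l2, 0.33 and 0.37 for zp3.1, 0.38 for zp3a.1, 0.25 for zp3c, 0.14 for zp3d.2, 0.11 for zp3f.1 and 0.34 for zp3f.2. None of these passed the test, and the scaling adds the same amount to every probe set. With an array left out, 10 members took either sign: ddx4 from -0.069 to 0.14, nanos1 from -0.27 to 0.093, nanos3 from -0.046 to 0.14, the second piwil1 probe set from -0.057 to 0.12, tdrd5 from -0.033 to 0.11, tdrd7a from -0.37 to 0.027, the second sycp1 probe set from -0.14 to 0.014, the first zp3.1 probe set from -0.34 to 0.025, zp3b from -0.10 to 0.23 and zp3d.1 from -0.059 to 0.15. No paired analysis was made, because the labels give no pairing of mutant with wildtype samples.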
